A study of Mus musculus with 12 samples.

Results

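The array of neural progenitor cells that overexpressed Pdx1 was compared with the arrays of cells that overexpressed Crebzf, Sox11 or Zfp451. These are 4 of the 12 arrays of the series, and by the barcodes in the file headers all 4 lay on 1 slide, with Pdx1 at position 1, Sox11 at 2, Crebzf at 3 and Zfp451 at 4. A gene was taken when its level on the Pdx1 array lay beyond its level on every one of the 3 other arrays, the references, and its probe was well above background on the brighter side, by the flag of the image software (a reliable signal). The same rule was then applied to each reference against the other 3 arrays, so that the Pdx1 counts could be read against arrays of other factors.

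All cells were neural progenitors of the 129/Ola mouse strain. Each of the 4 cultures had received a pMXs-IRESNeo retrovirus carrying the open reading frame of its factor, at a titre at which about 95% of cells expressed it. The cultures were selected with G418, to which the vector confers resistance, from 24 h after infection and harvested at 72 h. The series also holds EGFP virus and mock cultures and 6 other factors (Pax6, Hmga2, Gatad2b, Etv6, Esx1 and Nfxl1), used here only for their levels at the same genes, and how the mock culture was treated is not stated in the labels. The labels do not say which factors belong to the series' interfering and which to its non-interfering kind. Each factor was 1 array, so no difference below has a replicate check and no p-value was computed.

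Pdx1 is a homeodomain transcription factor that is required for pancreas formation and that later drives insulin and other islet genes in beta cells. It is not a gene of the normal neural progenitor, so here it was an ectopic factor. Homeodomain proteins of its kind read short sites built on the letters TAAT. Of the references, Crebzf is a leucine zipper protein that binds other transcriptional regulators, Sox11 an HMG-box factor of neuronal differentiation, and Zfp451 a zinc finger protein that acts in SUMO conjugation.

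Levels are log2 intensities relative to the 75th percentile of their own array, so 0 is that percentile and most tissue-restricted genes lie far below 0. A probe below the lowest reliable signal of its array was set to that floor, which was -6.96 on Pdx1, -6.63 on Crebzf, -6.87 on Sox11 and -6.62 on Zfp451. The 4 arrays were alike in signal, with 65.4% to 67.2% of probes well above background and no saturated spot. Nestin and vimentin, intermediate filaments of progenitors, stood on Pdx1 at 2.35 and 6.19, and Sox2, a neural stem cell factor, at 0.62. Fabp7 stood at -5.96 and Olig2 at the floor of -6.96, so these defining markers of radial glia and of ventral progenitors were at or near background on this array.

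The Pdx1 gene itself could not be followed. Its 1 probe, at chr5:146169398-146169457 in mm7, was well above background on none of the 12 arrays, the Pdx1 array included. Whether the probe lies within the open reading frame of the virus was not established, so it checks the label in neither direction. The reference factors gave no better check. The Crebzf probe read 2.15 on its own array and 2.13, 2.22 and 2.31 on Pdx1, Sox11 and Zfp451. None of the 6 Sox11 probes and 1 of the 4 Zfp451 probes was highest of the 4 arrays on the array of its own factor.

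By the number of genes at least 2-fold beyond all 3 others, the Pdx1 array did not stand apart from its references. Of 18893 genes with a reliable signal on at least 1 of the 4 arrays, 70 were higher on Pdx1 (0.371%) and 7 were lower (0.0371%). On Crebzf 89 were higher (0.471%) and 0 lower (0%), on Sox11 58 (0.307%) and 0 (0%), and on Zfp451 52 (0.275%) and 1 (0.00529%). The Pdx1 total of 77 thus lay between the 89 of Crebzf and the 58 of Sox11. At 3-fold, 43 genes were higher on Pdx1 and 0 lower, against 52, 41 and 29 higher on Crebzf, Sox11 and Zfp451.

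The side on which Pdx1 did differ from its references was the lower one, and there the sizes were small. Among the 17304 genes with a reliable signal on each of the 4 arrays, 58 were at least 1.5-fold lower on Pdx1 than on every reference (0.335%). The same count was 1 for Crebzf (0.00578%), 7 for Sox11 (0.0405%) and 9 for Zfp451 (0.052%). Genes 1.5-fold higher numbered 41 on Pdx1 (0.237%), within the range of 43 on Crebzf (0.248%), 24 on Sox11 (0.139%) and 32 on Zfp451 (0.185%). The filter on all 4 arrays together with this fold was chosen after the counts had been seen. Without the Sox11 array as a reference the Pdx1 count of lower genes was 138, and with a normexp background correction it was 13, against 0, 0 and 1 on Crebzf, Sox11 and Zfp451.

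**Figure D1:**
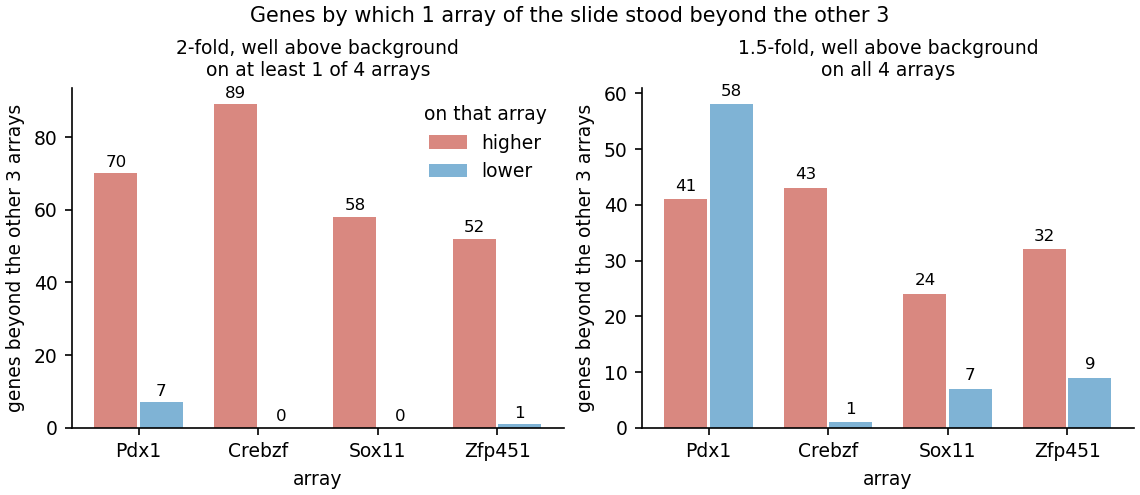
Number of genes (vertical axis) by which each of the 4 arrays of the slide (horizontal axis) stood beyond the other 3, with bars for genes higher and genes lower on that array. The left panel uses 2-fold and genes detected on at least 1 array, where Crebzf has the most with 89, and the right panel 1.5-fold and genes detected on all 4, where Pdx1 has 58 lower genes against at most 9.

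The Pdx1 array also lay somewhat farther from each reference than they lay from each other. Between 194 and 241 genes differed at least 2-fold between Pdx1 and 1 reference, against 151 to 182 between references. The median absolute log2 difference was 0.08 to 0.10 for Pdx1 against a reference and 0.06 to 0.08 between references. Probes spotted several times had a median SD of 0.082 log2 within the Pdx1 array and of 0.055 to 0.057 within the references, so the Pdx1 array was the noisier one on its own repeats. How far that accounts for the counts was not tested.

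Most of the genes 2-fold higher on Pdx1 were dim genes seen on that array alone. Of the 70, 49 were well above background on Pdx1 and on no reference, and 12 were well above background on all 4 arrays. Their median level on Pdx1 was -4.53. In 58 of the 70 the Pdx1 level was also above all 8 other arrays of the series. The genes were taken for being high on Pdx1, which favours such a place, and no like share was counted for the references. Just inside the 2-fold limit lay AK085108, 1.003 log2 above its nearest reference, and just outside lay Prodh2, at 0.98. Of the 70, 34 are named genes, and the rest are clones, predicted genes, unnamed accessions or chemosensory receptors.

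The 4 largest differences among named genes were in genes with quite different roles. Ppef1, a calmodulin-binding phosphatase of sensory neurons, read -2.70 on Pdx1 and lay at the floor on Crebzf, Sox11 and Zfp451. It was at least 15.2-fold higher on Pdx1 than on the nearest reference, and its probe was well above background on 1 of the 12 arrays. Actl7a, an actin-related protein of spermatids, read -2.76 on Pdx1 against -6.32, -6.73 and -6.60 on Crebzf, Sox11 and Zfp451. It was 11.7-fold above the nearest. Lrrc55, an accessory subunit of large-conductance potassium channels, read -3.27 and was at least 10.2-fold higher, at the floor on each reference. Ces2c, a carboxylesterase of liver and gut, read -3.54 and was at least 8.4-fold higher, again with each reference at its floor. With all probes of Ces2c averaged, its gap to the nearest reference was 1.37 log2 in place of 3.08.

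Cyp2d12, a cytochrome P450, read -2.75 on Pdx1 and -5.19, -5.57 and -5.84 on Crebzf, Sox11 and Zfp451, 5.4-fold above the nearest. It was measured on all 4 arrays and lay above all 8 others, which reached at most -5.72. With normexp, which adds a fixed offset and so shrinks differences of dim genes, the gap of Ppef1 to the nearest reference was 1.53 log2 in place of 3.92. Normexp took 8 of the 25 higher genes that the naming rule gives below 1.5-fold: Cx3cr1, Lrriq3, Nefl, Vstm5, Prodh2, Hsd3b1, Apom and Cytl1, with gaps of 0.29 to 0.51. With all probes averaged, Clec4g (0.52), Cx3cr1 (0.54) and Lrriq3 (0) were below it. Averaging also narrowed the gaps of Kcnj9 (2.94 to 1.30), Triml1 (2.76 to 1.21) and Gpr82 (2.05 to 0.86).

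Several of the higher genes belong to neurons or their synapses. Kcnj9, a G protein-gated potassium channel subunit, read -3.48 on Pdx1 and -6.41, -6.58 and -6.62 on Crebzf, Sox11 and Zfp451. The mock array read -3.40 at the same probe, so a high level was not particular to the Pdx1 array. Ephb1, an ephrin receptor kinase, and Slitrk4, a synaptic adhesion protein, lay at the floor on the 3 references. Ephb1 read -3.81 on Pdx1, at least 7.0-fold higher. Slitrk4 read -4.41 and was at least 4.6-fold higher. The list of 13 neuronal marker genes did not share this direction, since its 10 measured members had a median difference of -0.01 from the mean of the references (0.03 with normexp).

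Other genes high on Pdx1 were also high on 1 array elsewhere in the series. Triml1, of the tripartite motif family, read -3.86 on Pdx1 and the floor on each reference, but -3.46 on Pax6. Clec4g, a lectin of liver sinusoids, read -3.70 on Pdx1 against -5.94, -5.98 and -6.04 on Crebzf, Sox11 and Zfp451, while Nfxl1 read -3.55. Cx3cr1, the fractalkine receptor of microglia, read -4.27 on Pdx1 and -5.68 on Zfp451, the nearest reference, a 2.7-fold difference. It read -3.12 on Nfxl1. Of 8 measured members of the macrophage and microglia list, 2 lay above all 3 references and 3 below, with a median of -0.05 (0.04 with normexp and 0.12 with no floor). Cd68, a lysosomal protein of macrophages and the other one above, had a gap of 0.07, and Ptprc was at the Pdx1 floor.

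Scgb3a1, a secreted airway protein, and Gpr82, an orphan receptor, also lay at the floor on the 3 references. Scgb3a1 read -4.03 on Pdx1 and Gpr82 -4.57, which made them at least 6.0-fold and 4.2-fold higher. Gpr82 read -4.58 on Gatad2b as well.

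**Figure D2:**
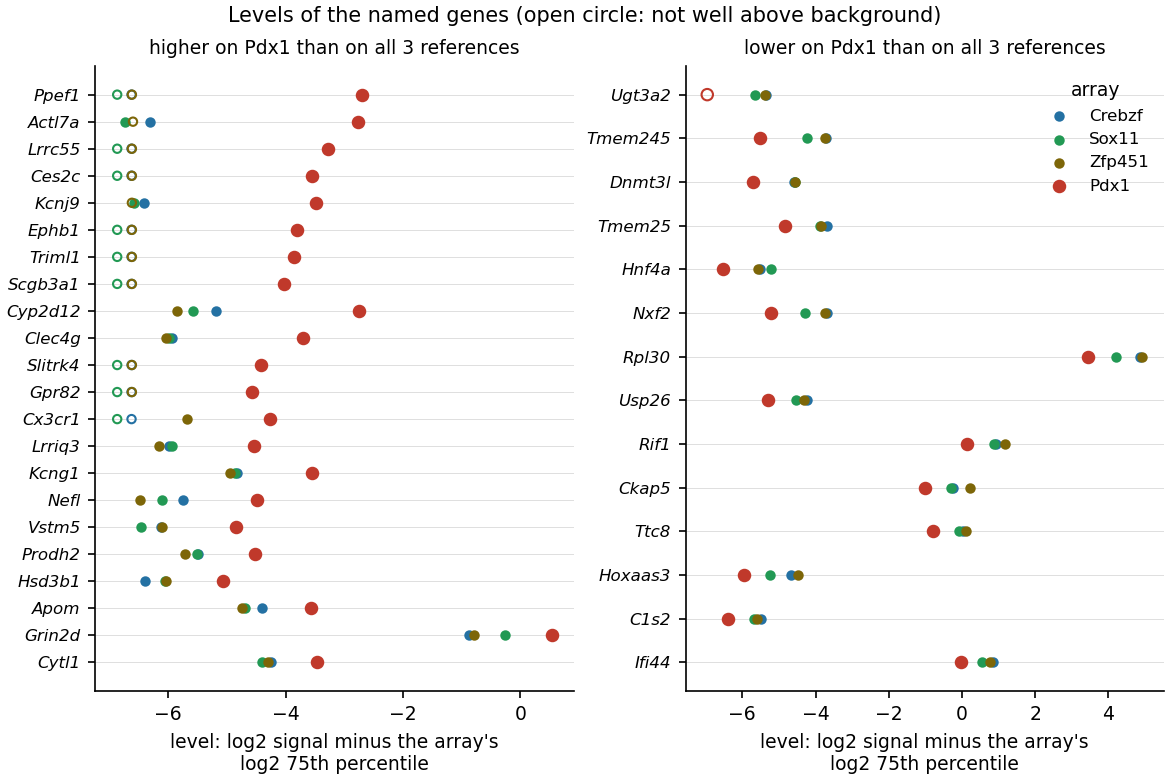
Level of the genes described (horizontal axis, log2 signal minus the log2 75th percentile of its array) on the Pdx1, Crebzf, Sox11 and Zfp451 arrays, 1 point for each array and an open circle where the probe was not well above background. The left panel shows 22 genes higher on Pdx1, 8 of them with all 3 references at the floor, and the right panel 14 lower genes, of which only Ugt3a2 has a Pdx1 level that is not well above background.

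Among genes measured on all 4 arrays the higher side held smaller differences. Grin2d, the GluN2D subunit of NMDA receptors, was the brightest of the named ones and read 0.54 on Pdx1 against -0.88, -0.25 and -0.79 on Crebzf, Sox11 and Zfp451. It was 1.7-fold above Sox11, the nearest. Over the 8 other arrays Grin2d ran from -1.18 on Nfxl1 to 1.53 on mock, a spread wider than its difference on this slide. Kcng1, a modulatory potassium channel subunit, read -3.55 on Pdx1 and -4.82, -4.87 and -4.95 on Crebzf, Sox11 and Zfp451. At 2.4-fold it was clear of 3 references that differed by little, yet the EGFP array read -3.54, and the 8 other arrays reached down only to -4.15.

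Nefl, the light chain of neurofilaments, stood higher in the same manner. It read -4.48 on Pdx1 and -5.74, -6.11 and -6.47 on Crebzf, Sox11 and Zfp451, 2.4-fold above the nearest, while mock read -3.45 and EGFP -3.98. Its second probe lay among the references. Apom, an apolipoprotein of high-density lipoprotein, read -3.57 on Pdx1 and -4.40, -4.70 and -4.74 on Crebzf, Sox11 and Zfp451, 1.8-fold above the nearest. Prodh2, a hydroxyproline dehydrogenase, read -4.52 against -5.50, -5.52 and -5.71, and its second probe was 0.33 log2 above all 3 references. For Kcng1, Nefl and Prodh2 the Pdx1 array lay within the range of the 8 other arrays, and the references lay at or below its lower part.

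The others of this kind stood 1.7-fold to 2.6-fold above their nearest reference. Hsd3b1, an enzyme of steroid synthesis, read -5.07 on Pdx1 and at most -6.04 on the references. Cytl1, a secreted protein of cartilage, read -3.47 on Pdx1 and -4.25, -4.41 and -4.30 on Crebzf, Sox11 and Zfp451. Lrriq3 read -4.53 against at most -5.93, though with the mean of all its probes it lay among the references, and Vstm5, a membrane protein of the immunoglobulin family, -4.84 against at most -6.10. Of 13 further probes of genes 1.5-fold higher on Pdx1, 6 were also above all 3 references (46.2%) and 4 were below them. Among further probes of all tested genes, whichever way the first probe lay, 31.8% were above.

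Differences on the lower side were smaller. Ugt3a2, a UDP-glycosyltransferase, was not well above background on Pdx1 and read -5.36, -5.64 and -5.38 on Crebzf, Sox11 and Zfp451. It was at least 2.5-fold lower on Pdx1 than on the nearest. Dnmt3l, a cofactor of the DNA methyltransferases, read -5.70 on Pdx1 and -4.59, -4.55 and -4.57 on Crebzf, Sox11 and Zfp451. The SD across its references was 0.02 log2, and the Pdx1 array was 2.2-fold below them and below all 8 other arrays. Just inside the 2-fold limit on this side lay Dnmt3l, at -1.11, and just outside lay Tmem25, at -0.96.

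Hnf4a, a nuclear receptor of liver, gut and pancreas that acts beside Pdx1 in islet cells, was the member of the pancreas lists with a difference past 1.5-fold. It read -6.53 on Pdx1 and -5.50, -5.22 and -5.57 on Crebzf, Sox11 and Zfp451, 1.9-fold below the nearest. On the 8 other arrays it ranged from -6.04 to -4.01, so Pdx1 was the lowest of the 12 at a dim probe. With normexp the gaps to the nearest reference were -0.10 for Hnf4a and -0.29 for Dnmt3l, both short of 1.5-fold. In all, 9 of the 14 lower genes were short of it with normexp, and 6 with the mean of all probes, namely Tmem245, Hnf4a, Usp26, Rif1, Ckap5 and Ifi44. Tmem25, a membrane protein of the immunoglobulin family, read -4.84 on Pdx1 against -3.68, -3.88 and -3.85, and Nxf2, an mRNA export factor of germ cells, -5.21 against -3.68, -4.30 and -3.75. Tmem25 was lower still on mock, at -6.32. Nxf2 lay at the mock floor of -6.56, and at the floor on EGFP, Hmga2, Gatad2b, Etv6 and Nfxl1 as well.

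Lower genes were also found among bright ones. Rpl30, a protein of the large ribosomal subunit, has its probe at chr15:34549505-34549564 in mm7. It read 3.43 on Pdx1, 4.87 on Crebzf, 4.19 on Sox11 and 4.92 on Zfp451, 1.7-fold below the nearest. Rif1, which controls replication timing and the choice of DNA repair, read 0.14 on Pdx1 and 0.94, 0.86 and 1.16 on Crebzf, Sox11 and Zfp451. Its second probe lay among the references, so the gene's probes did not give the same picture. With normexp the gaps of these bright genes were -0.78 for Rpl30 and -0.71 for Rif1, both still past 1.5-fold. Ckap5, a microtubule polymerase of the spindle, read -1.01 against -0.26, -0.29 and 0.21, while its 2 further probes showed next to no gap. Ttc8, of the complex that carries proteins to cilia, read -0.80 against 0.03, -0.08 and 0.10.

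Few of the lower genes had a second probe that could bear on them. Of the 78 genes 1.5-fold lower on Pdx1 when well above background on at least 1 array, 9 had a further probe well above background, and 4 of those 11 probes were also below all 3 references (36.4%). Among further probes of all tested genes, whichever way the first probe lay, 32.3% were below all 3. The 36.4% of the called genes, from 11 probes, lay near that share.

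The lower genes were then followed across the slides, because the Pdx1 array was the one at position 1. The mock array held position 1 of its slide, with EGFP at 2 and Hmga2 at 4, and Gatad2b held position 1 of the last slide, with Etv6 at 2 and Nfxl1 at 4. Pax6 and Esx1, at position 3, were left out here. This comparison was chosen after the values had been seen. Of the 58 lower genes, 33 were well above background on all 4 arrays of the Pdx1 slide and these 6. In 26 of the 33 (78.8%) mock was the lowest of its 3 arrays, as it was for 26.3% of 16096 genes. In 26 of the 33 (78.8%) Gatad2b was the lowest of its 3, against 22.9% of all genes, and in 22 (66.7%) both were, against 8.26%.

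Rpl30 shows the pattern most plainly. At position 1 it read 3.43 on Pdx1, 3.59 on mock and 2.87 on Gatad2b. At position 2 it read 4.19 on Sox11, 4.25 on EGFP and 4.15 on Etv6, and at position 4 it read 4.92 on Zfp451, 5.01 on Hmga2 and 4.79 on Nfxl1. The ribosomal gene thus took the same order on each slide whatever factor the cells carried. Tmem245, a membrane protein, was 2.4-fold lower on Pdx1 than on the nearest reference, at -5.52 against -3.72, -4.24 and -3.74 on Crebzf, Sox11 and Zfp451. It read -4.56 on mock against -3.65 on EGFP and -2.85 on Hmga2, and -5.95 on Gatad2b against -4.19 on Etv6 and -3.44 on Nfxl1.

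**Figure D3:**
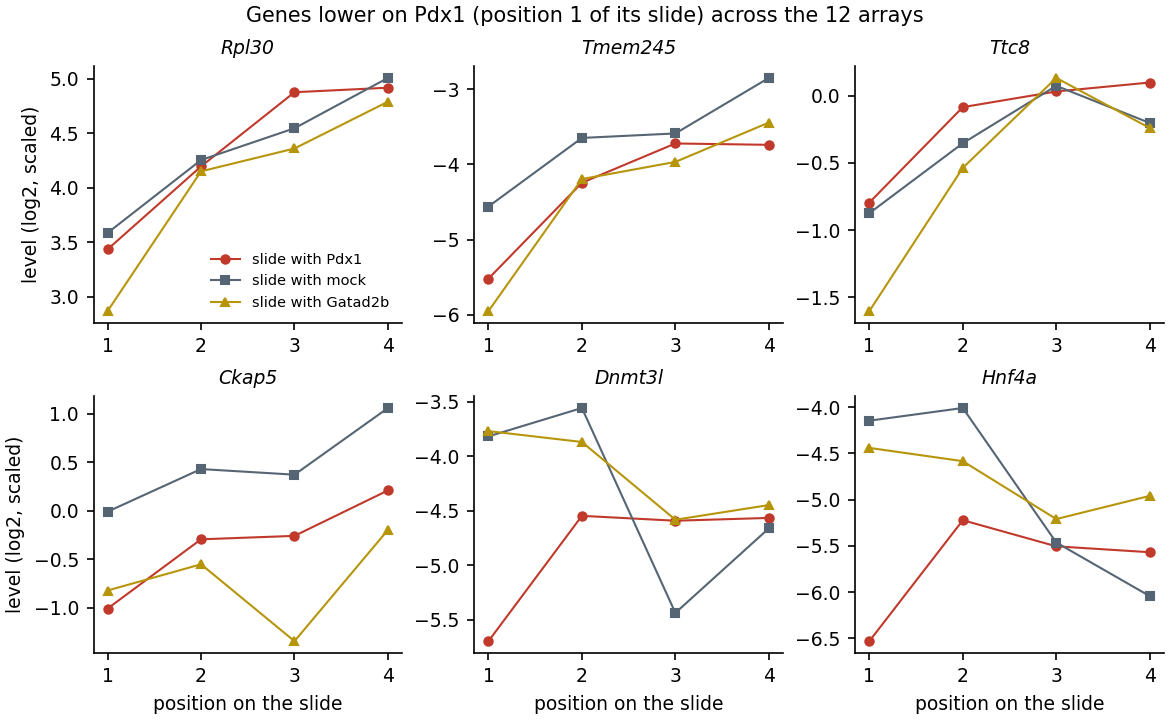
Level (vertical axis, log2 relative to the 75th percentile of the array) of 6 genes lower on Pdx1, by position on the slide (horizontal axis), with 1 line for each of the 3 slides and Pdx1, mock and Gatad2b at position 1. Rpl30, Tmem245, Ttc8 and, apart from Esx1, Ckap5 are lowest at position 1 on each slide, while Dnmt3l and Hnf4a are low at position 1 on the Pdx1 slide only.

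Rif1, Ckap5, Ttc8 and Ifi44 were also lowest at position 1 of each slide in this comparison, although for Rif1 Gatad2b and Nfxl1 both read 1.37. Dnmt3l and Hnf4a were not: Dnmt3l read -3.82 on mock and -3.77 on Gatad2b, both above Hmga2 and Nfxl1, and Hnf4a read -4.15 and -4.44, again above them. Among the named lower genes that could be compared, these 2 were thus the ones for which position 1 of the other slides was not low. With the fold reduced to 1.25, 218 genes lower on Pdx1 could be followed, of which 164 (75.2%) were lowest on mock, 130 (59.6%) on Gatad2b and 109 (50%) on both. Genes higher on Pdx1 showed less of this, since 8 of 31 at 1.5-fold (25.8%) were highest at position 1 of both other slides, against 15.5% of all genes.

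**Figure D4:**
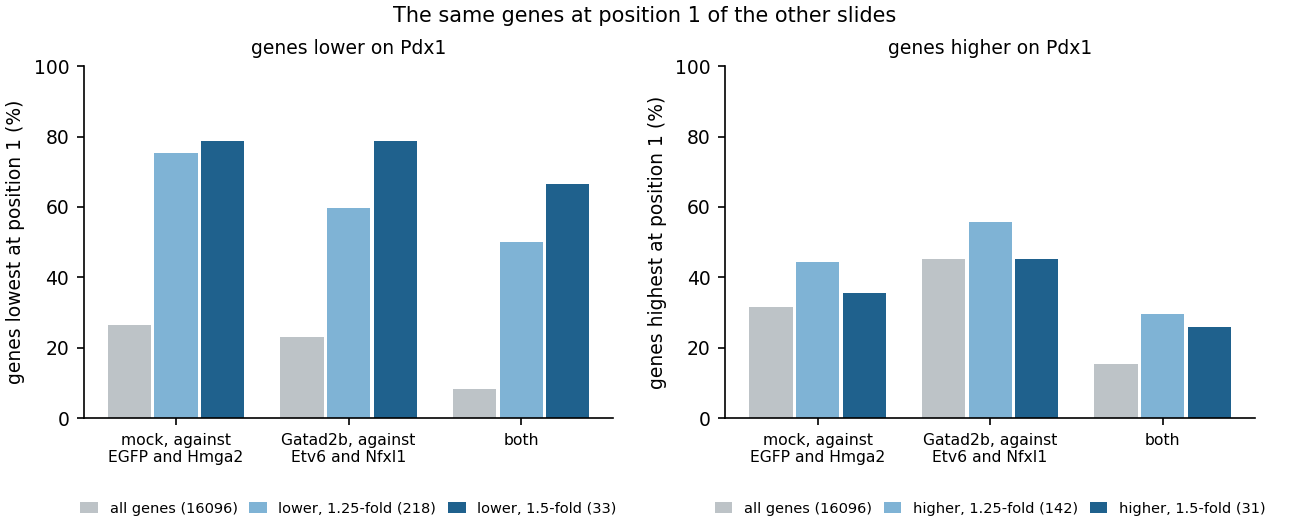
Share of genes (vertical axis, percent) that are lowest (left) or highest (right) at position 1 of the slide with mock, of the slide with Gatad2b and of both, for all 16096 genes and for genes 1.25-fold and 1.5-fold beyond the 3 references on Pdx1. Of 33 genes 1.5-fold lower on Pdx1, 66.7% are lowest at both other first positions against 8.26% of all genes, while 25.8% of 31 higher genes are highest there against 15.5%.

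The lower genes also fell unevenly on the array itself. The best probe of 38 of the 58 (65.5%) lay in a spot column whose number is a multiple of 4, where 24.9% of the 17304 genes lie. At 1.25-fold this held for 149 of 290 lower genes (51.4%). For genes 1.5-fold higher on Pdx1 it was 11 of 41 (26.8%), and for genes 1.25-fold lower on Crebzf, Sox11 and Zfp451 it was 17.0%, 25% and 15.9%. The column measure was likewise chosen after the values had been seen. On this slide the Pdx1 culture and position 1 cannot be told apart, and what part position or column had in any single gene was not tested.

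Genes that act with or downstream of Pdx1 in the pancreas were examined as lists. Of 20 islet endocrine genes, 8 were well above background on at least 1 of the 4 arrays, and none of these was 1.5-fold higher on Pdx1. Their median difference from the mean of the references was -0.09, beside 0.01 over all genes tested, and 0.02 with normexp. Without normexp single members ran from -1.72 to 0.18. Of the 8, 1 lay above all 3 references (12.5%) and 2 below (25%), beside 34.0% and 30% of all genes tested. None of the 8 was counted as 1.5-fold lower than every reference. Ins2, an insulin gene and a known target of Pdx1, read -2.46 on Pdx1, -2.22 on Crebzf, -2.26 on Sox11 and -2.46 on Zfp451, so Pdx1 lay at the lower end of its references. Iapp, islet amyloid polypeptide, read -5.51 against -5.53, -5.44 and -5.19, and Slc2a2, the glucose transporter of beta cells, -6.30 against -6.44, -6.48 and -6.08.

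Of 25 transcription factors of pancreas and islet, 15 were measured, with a median difference of 0.06. With the mean of all probes it was -0.02. On Pdx1, 7 of the 15 lay above all 3 references and 1, Hnf4a, below, beside 34.0% above and 30% below over all genes tested. Foxa2, which opens endodermal chromatin, read 3.94 on Pdx1 and 3.75, 3.80 and 3.76 on Crebzf, Sox11 and Zfp451, 0.14 above the nearest. Nkx6-1, a beta cell factor, read -4.66 against -4.70, -4.53 and -4.40, within the references, and Neurog3, the endocrine progenitor factor, -6.02 against -5.77, -6.13 and -5.78. Of 16 exocrine genes 9 were measured, with a median of -0.05, or 0.05 with normexp, and none was past 1.5-fold.

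Over all 35 lists, 405 of 493 genes were measured, and 4 of them were at least 1.5-fold beyond the references: Nefl and Cx3cr1 higher, Hnf4a and Ifi44 lower. That is 0.988% of the members, near the 1.12% (211 of 18893) of all genes tested. Ifi44, an interferon-induced gene, read -0.03 on Pdx1 and 0.85, 0.56 and 0.76 on Crebzf, Sox11 and Zfp451. It read -2.75 on mock and -1.83 on EGFP, so all 4 arrays of the slide were above both. Of the 24 interferon response genes 6 lay below all 3 references (25%, beside 30% of all genes) and 1 above, with a median of -0.05. The median of the Zfp451 array against its other 3 was -0.12 on the same list. Ddx58, the RNA sensor RIG-I, read -0.92 against -0.36, -0.40 and -0.17, just short of 1.5-fold.

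In some lists small differences lay mostly on 1 side, where 34.0% of all genes tested lay above all 3 references and 30% below. In the Notch list 10 of 13 measured genes lay above (76.9%) and 0 below, with a median of 0.13. Notch3, a receptor, read 1.47 on Pdx1 and 1.33, 1.35 and 1.34 on Crebzf, Sox11 and Zfp451, and Nrarp, a feedback inhibitor, -3.53 against -3.67, -3.89 and -3.86. Of 13 genes of FGF signalling and its ERK feedback 9 lay above all 3 references (69.2%) and 2 below, with a median of 0.11. Of 14 immediate early genes 8 lay above (57.1%) and 1 below, with a median of 0.13. Egr1, a growth factor-induced zinc finger protein, read 3.96 on Pdx1 and 3.69, 3.67 and 3.81 on Crebzf, Sox11 and Zfp451.

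Hypoxia and glycolysis genes and the histones lay on the other side, as did most housekeeping genes. Of 12 housekeeping genes 7 lay below all 3 references (58.3%) and 1 above, with a median of -0.04. Of 15 hypoxia and glycolysis genes 10 lay below all 3 references (66.7%) and 2 above, with a median of -0.12. Pgk1, phosphoglycerate kinase, read 6.61 on Pdx1 against 6.83, 6.72 and 6.73. Of 10 replication-dependent histones measured 9 lay below and 1, H3c14, at 5.94 on both Pdx1 and Sox11, did not, with a median of -0.16. H1f5, a linker histone, read 0.84 on Pdx1 against 1.15, 1.09 and 1.15. The 26 cell cycle genes had a median of 0.00. A reference against its other 3 arrays gave medians of up to 0.13 for the histones and -0.11 for the immediate early genes, both on Crebzf. For Notch the 3 references gave -0.06, -0.08 and 0.06, for FGF -0.08, -0.04 and -0.01, and for hypoxia 0.05, 0.04 and -0.02, on Crebzf, Sox11 and Zfp451. At position 1 of the other slides, mock against EGFP and Hmga2 and Gatad2b against Etv6 and Nfxl1, the Notch medians were 0.06 and 0.10. There the FGF medians were 0.03 and -0.06 and the immediate early ones 0.06 and -0.27. Those of hypoxia were -0.01 and 0.01, those of the histones -0.09 and 0.06, and those of all genes tested 0.02 and 0.03. What part position had in the lists was not tested. The signs of the Notch, FGF, immediate early, hypoxia and histone medians on Pdx1 were kept under quantile normalization, normexp and the mean of all probes. No floor and the filter on all 4 arrays could not change the FGF, immediate early, hypoxia and histone medians. Every measured member of those lists was well above background on all 4 arrays. The Notch median was 0.13 with no floor and 0.11 with the filter.

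**Figure D5:**
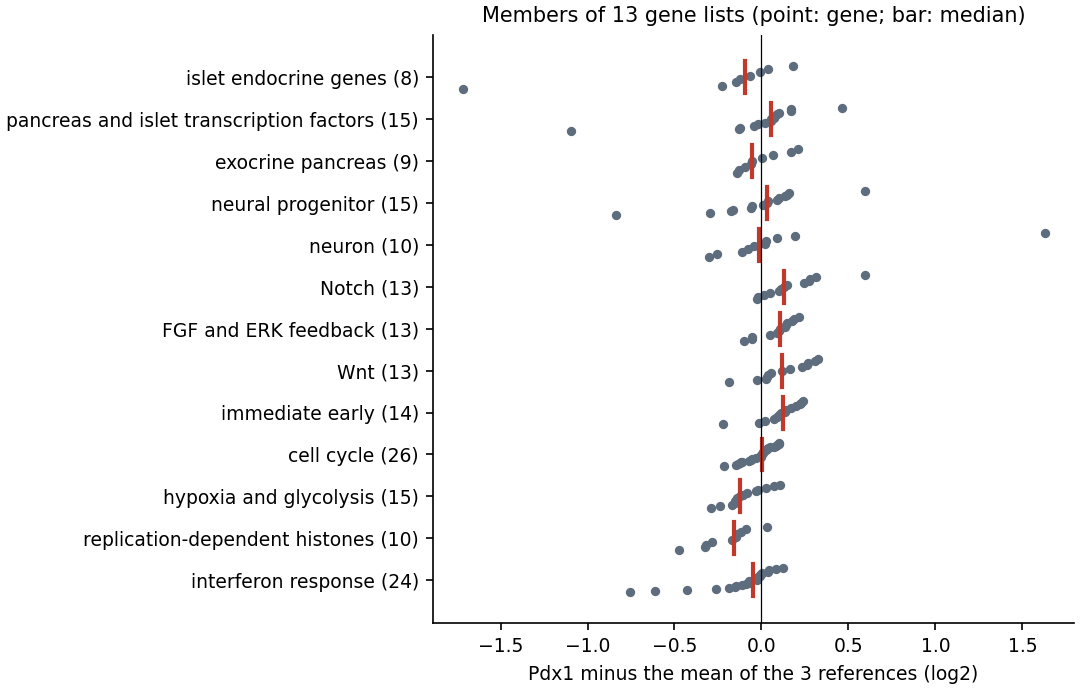
Difference of the Pdx1 array from the mean of the Crebzf, Sox11 and Zfp451 arrays (horizontal axis, log2) for each measured member of 13 gene lists (rows, with the number of members), with a bar at each median. The medians lie between -0.16 for the histones and 0.13 for Notch, and single points such as Nefl and Hnf4a stand outside their lists.

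Promoter sequence was read for these genes because Pdx1 recognises TAAT-based sites. RefSeq windows of 300 bases, from 250 before to 50 after a start on GRCm38.p6, were searched on both strands for TAATTA, which reads the same on each strand, and for CTAATG. Of the 70 genes 2-fold higher on Pdx1, 30 had a window, and 7 of them held TAATTA (23.3%) and 4 CTAATG (13.3%). Over all 11752 tested genes with a window the shares were 3.91% and 6.28%. CTAATG was held by 5 of 49 higher genes of Crebzf, 2 of 30 of Sox11, 3 of 28 of Zfp451 and 10.2% of the genes well above background on 1 to 3 of the 4 arrays, so the Pdx1 share lay near these. The higher genes of the references held TAATTA in 5 of 49 (10.2%) on Crebzf, 2 of 30 (6.67%) on Sox11 and 2 of 28 (7.14%) on Zfp451. Among the 766 genes with a window that were well above background on 1 to 3 of the 4 arrays it was 8.62%. The windows of the genes higher on Pdx1 had a median G and C content of 50.3%, against 60.0% over all windows. It was 48.3%, 46% and 53.7% for the higher genes of Crebzf, Sox11 and Zfp451. For the genes well above background on 1 to 3 of the 4 arrays it was 51.7%. What part base composition had in the shares was not tested, and a match is a description of letters, not a site.

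Of the 58 genes 1.5-fold lower on Pdx1, 17 had a window, and 3 held TAATTA (17.6%) and 0 CTAATG. The windows of Ces2c and Triml1 are shown as 2 higher genes that held TAATTA, and that of Hnf4a as the lower gene of the pancreas list, with the motif in capitals and each sequence 5′ to 3′.
Ces2c, chr8:104846818-104847117, plus strand: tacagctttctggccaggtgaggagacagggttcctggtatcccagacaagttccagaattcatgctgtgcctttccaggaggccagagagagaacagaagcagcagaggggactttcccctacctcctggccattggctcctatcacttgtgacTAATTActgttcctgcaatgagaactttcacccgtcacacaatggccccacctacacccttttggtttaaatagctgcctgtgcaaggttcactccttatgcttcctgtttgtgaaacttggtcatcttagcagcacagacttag
Triml1, chr8:43141437-43141736, minus strand: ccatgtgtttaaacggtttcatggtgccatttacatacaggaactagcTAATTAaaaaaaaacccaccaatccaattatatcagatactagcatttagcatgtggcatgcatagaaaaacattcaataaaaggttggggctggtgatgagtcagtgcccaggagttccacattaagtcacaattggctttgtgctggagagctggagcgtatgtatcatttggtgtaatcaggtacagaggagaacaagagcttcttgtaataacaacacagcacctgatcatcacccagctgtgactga
Hnf4a, chr2:163546905-163547204, plus strand: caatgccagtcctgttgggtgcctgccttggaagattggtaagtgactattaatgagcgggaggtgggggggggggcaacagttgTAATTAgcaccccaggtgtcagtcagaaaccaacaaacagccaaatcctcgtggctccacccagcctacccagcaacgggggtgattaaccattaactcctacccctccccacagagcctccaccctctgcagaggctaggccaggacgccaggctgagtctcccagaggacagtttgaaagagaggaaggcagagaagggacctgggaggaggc
Ces2c was at the floor on all 3 references and Hnf4a was 1.9-fold lower on Pdx1, so the same letters stood near a start of genes on either side. Hnf4a has a second window in the table, at chr2:163506607-163506906, which holds neither motif.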

How the data were processed

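The deposited files hold 1-colour Agilent whole mouse genome arrays read with Feature Extraction 10.7.3.1, per the file headers. The value of a spot is a background-subtracted, detrended intensity on the linear scale, per the file headers, and the authors' deposited value table equals it on all 12 arrays. Other deposited columns carry 0 or 1 flags of the image software that mark outliers, saturation and spots well above background. No other normalization is given in the sources used here, and probe positions refer to mm7.

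Here outlier spots were left out, repeated spots averaged, and each array's log2 values set relative to its log2 75th percentile, then raised to the floor. Of 41174 probes, 23082 were named by RefSeq accession, 6582 by symbol and 3073 by synonym on GRCm38.p6, and 8437 as in the file. A gene's probe was the one with the highest mean. Where the dim side was not well above background the fold is a lower bound, given with the words at least. With 1 array for each factor there was no test, and the number of arrays limits the precision. The rule was tested on simulated data.

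Named genes were up to 15 in each direction 2-fold beyond all 3 references, up to 12 in each direction 1.5-fold beyond and well above background on all 4, list members 1.5-fold beyond, and the overexpressed genes. Clones, predicted genes, unnamed accessions, chemosensory receptors and genes with an opposing further probe were left out of the first 2 kinds, and a few genes that the rule names are not reported here. The comparison, the members and the lists were chosen with earlier results of these data known. Alternatives were quantile normalization, normexp (offset 50, limma 3.58.1), no floor, the mean of all probes, outlier spots kept, other folds and each array left out. Scripts ran in Python 3.11.15 with pandas 2.3.3 and numpy 2.4.6.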

Additional observations from a re-analysis of the deposited data

How the results depend on the processing

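Counts at 2-fold moved most with the treatment of dim signal. With normexp, 17 genes were higher and 0 lower on Pdx1, and 20, 14 and 7 lay beyond on Crebzf, Sox11 and Zfp451. With no floor there were 118 higher and 17 lower on Pdx1, 129 on Crebzf, 98 on Sox11 and 100 on Zfp451. Among genes detected on all 4 arrays there were 12 higher and 4 lower on Pdx1, and 25, 12 and 10 beyond on Crebzf, Sox11 and Zfp451. At 1.5-fold the counts were 133 and 78 on Pdx1 and 138, 106 and 119 on the references. At 3-fold they were 43 and 0 on Pdx1, 52 on Crebzf and 29 on Zfp451. At 1.25-fold, added later, they were 355 and 338 on Pdx1 and 313, 268 and 413 on the references. Leaving out 1 array gave 71 to 78 higher and 10 to 26 lower on Pdx1, the 26 without Sox11, and 90 to 105, 63 to 66 and 54 to 74 on Crebzf, Sox11 and Zfp451. Fewer arrays to lie beyond can only raise these counts. The 58 genes 1.5-fold lower and well above background on all 4 were 13 with normexp and 69 to 138 without 1 reference. On the same measure Crebzf, Sox11 and Zfp451 had at most 18, 29 and 41 without 1 array. Quantile normalization, the mean of all probes and outlier spots kept left the Pdx1 counts within 1.5 times.

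Over 39 named genes and 8 alternatives no difference changed sign, and 1 gap, that of Lrriq3 with the mean of all probes, was 0. Leaving out a reference could not reverse a sign, since a gene beyond every reference stays beyond those that remain. The absence of sign changes there shows nothing about stability. The naming rule left out most genes with an opposing further probe, which in part guarded the mean of all probes as well. Of 312 values 70 moved by more than 0.22 log2, 33 of them with normexp. Several list medians changed sign, among them the endothelial one, 0.11 and -0.02 with the mean of all probes. No paired analysis was possible because each factor has 1 array. The dim genes that make up most of the higher side rest on signal near background, and no replicate shows whether they recur.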

Other observations

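Some genes outside the naming rule were picked out after their values were seen. Ngfr, the low-affinity neurotrophin receptor of neural crest and glia, read 0.19 on Pdx1 and -0.42, -0.41 and -0.45 on Crebzf, Sox11 and Zfp451, with a second probe 0.13 log2 above all 3. Mock read -1.06 and EGFP -1.29. Mtmr2, a phosphatase of membrane lipids in Schwann cells, read -0.43 on Pdx1 against -1.07, -1.04 and -1.03, and the mock array read -0.95. Sult4a1, a sulfotransferase of brain, read -3.29 against -4.31, -4.25 and -4.03.

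Among the lower genes that could be followed across slides, Pcm1, Slc4a1 and Lmln were lowest at position 1 of only 1 of the other slides. For Pcm1 this was mock, at 0.69 against 0.85 on EGFP and 1.06 on Hmga2. For Slc4a1 and Lmln it was Gatad2b, at -5.18 and -3.94, next to Nfxl1 at -5.15 and -3.89. Pcm1, a scaffold of the satellites around centrosomes, read -0.47 on Pdx1 and 0.14, 0.12 and 0.44 on Crebzf, Sox11 and Zfp451, and the 8 other arrays read 0.45 to 1.06. Slc4a1, the anion exchanger of red cells, read -6.51 against -5.69, -5.82 and -5.71. Lmln, a metallopeptidase, read -6.10 against -5.23, -5.49 and -5.08. Hmgn5, a nucleosome-binding protein, read 0.88 on Pdx1 against 1.67, 1.49 and 1.82. Mock, at 1.87, and Gatad2b, at 1.62, were the lowest of their 3 arrays with position 3 left out. At position 3 Pax6 read 1.70, below mock, and Esx1 1.63, next to Gatad2b.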
